A study of Mus musculus with 4 samples.

Results

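The fibroblast growth factor (FGF) system was examined through 10 genes, the receptors Fgfr1, Fgfr2 and Fgfr3 and the ligands Fgf1, Fgf2, Fgf7, Fgf9, Fgf10, Fgf18 and Fgf20, in mouse mammary cells grown with or without Wnt3A. Every probe set that the platform annotation assigned to one of these symbols alone was taken, which gave 19 of the 45037 probe sets tested, 8 for receptors and 11 for ligands. RNA came from colonies grown from mammary cells of virgin CD1 females aged 8 to 12 weeks, sorted by flow cytometry into the lineage-negative, CD24-positive, CD29-high fraction, which holds the basal cells and is used to enrich for stem cells. All colonies were grown in growth factor reduced Matrigel, a basement membrane gel, in a serum-free medium with insulin, transferrin and selenium and 50 ng/ml EGF, a ligand of another receptor tyrosine kinase. No FGF is named among the additives. The Wnt3A group received 200 ng/ml of purified Wnt3A, a secreted activator of canonical Wnt signalling, and the control group its CHAPS vehicle (named "vesicle" in some labels). Colonies of passage 2 were harvested after 6 to 7 days, and each group had 2 arrays, numbered 1 and 2 in the labels. Nothing in the labels ties a number to a mouse or culture of its own, so p-values cover only the spread among these samples, and that spread may be technical.

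Most FGFs are secreted proteins that bind receptor tyrosine kinases together with heparan sulfate, a sugar chain on cell-surface and matrix proteins, and activate the ERK cascade. Alternative splicing of the receptor genes gives an epithelial IIIb and a mesenchymal IIIc form with different ligand preferences. In the mammary gland, Fgf10 from the mesenchyme and Fgfr2 in the epithelium are needed for the embryonic mammary bud to form, and Fgf2 is widely used to make mammary organoids branch. Members of the family also act up- and downstream of Wnt signals in skin appendages.

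The deposited values are log2 values from which the median of the 4 arrays had been removed for each probe set. A value of 0.38 therefore means 0.38 log2 units above that probe set's own median, and the middle pair of arrays in each probe set is equal and opposite. Differences between arrays are preserved but absolute levels are not, so no order of levels between FGF genes can be given. What remains of level is a coarse band read from the storage precision of the numbers: "8 to 16" where all 4 arrays could lie at or above log2 8, "4 to 8" where at least 1 array was below log2 8, and "below 4" where at least 1 was below log2 4. A band can be too high by coincidence but hardly too low. Of the 19 FGF probe sets, 3 lay in the upper band, 14 in the middle band and 2 in the lowest. Over all probe sets tested the shares were 33.4%, 47% and 19.6%. The 3 in the upper band belonged to Fgfr1, Fgfr2 and Fgfr3, and none of the 11 ligand probe sets was among them.

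Fgfr1 and Fgf1 had probe sets with lower values in Wnt3A colonies, and neither gene passed the test across the array. For Fgfr1, both Wnt3A arrays lay below both controls on 2 of its 3 probe sets, by 0.57 and 0.41 log2 units, and Fgf1 on 1 of its 3, by 0.44. No FGF probe set was called: limma gave 0 of 19 at an adjusted p under 0.05 (Benjamini-Hochberg over all 45037 probe sets), where the background was 0% of all probe sets, and the smallest adjusted p of an FGF probe set was 0.719. At an unadjusted p under 0.05 there were 3 of 19, all lower with Wnt3A and all in Fgfr1 or Fgf1, beside 6.22% of all probe sets in either direction, 3.24% in the lower and 2.98% in the higher direction. The arrays of the groups did not overlap for 3 FGF probe sets in the lower direction, or 15.8%, where the background was 16.3%, and for 1 in the higher direction, where it was 17.4%. Both directions together gave 4 of 19, or 21.1%, against 33.7%. These shares of separated probe sets were near or below those of the whole array. The median difference over the 19 probe sets was -0.069 log2 units, against 0.007 over all probe sets, and it was -0.018 without control 1, 0.005 without control 2 and -0.024 without Wnt3A 1. With 2 arrays a group, an exact permutation test cannot give a two-sided p below 0.33.

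**Figure D1:**
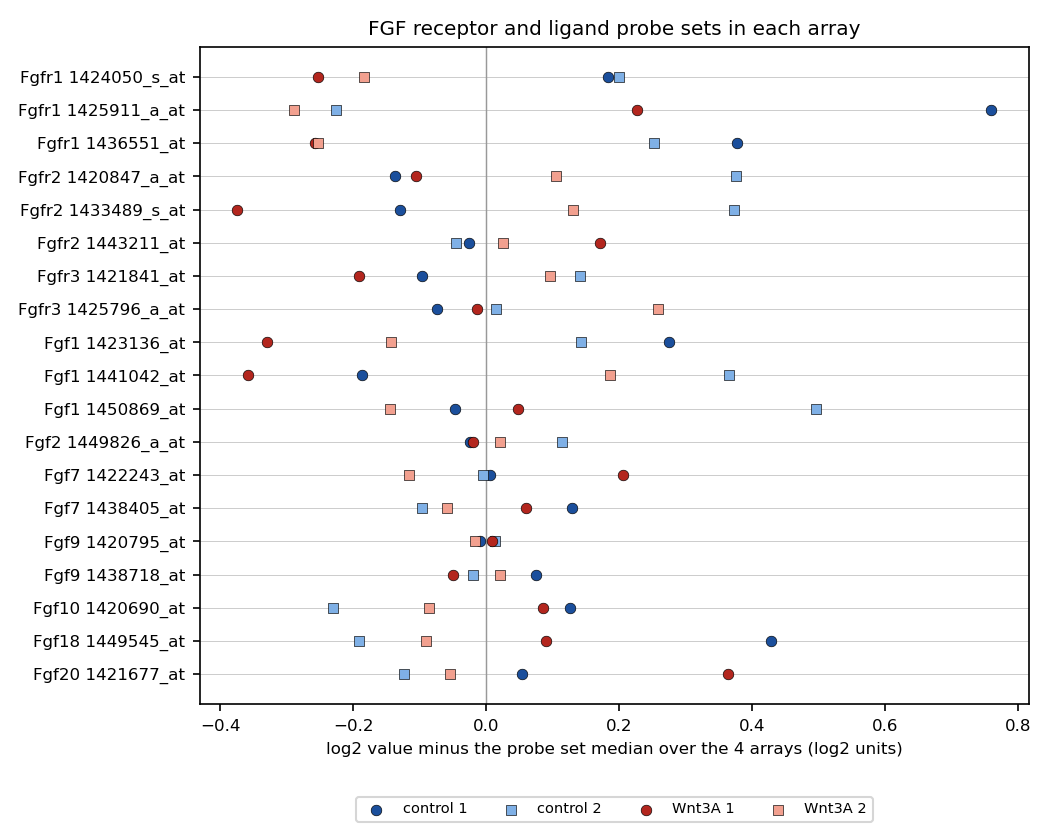
Deposited log2 values of the 19 FGF probe sets (rows) in the 4 arrays, plotted relative to the probe set's own 4-array median (x axis, log2 units); blue marks are controls, red marks are Wnt3A, circles are the arrays numbered 1 and squares those numbered 2. Blue lies to the right of red for Fgfr1 1424050_s_at, Fgfr1 1436551_at and Fgf1 1423136_at, and to the left for Fgfr2 1443211_at; the other 15 rows overlap.

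Fgfr1 encodes the receptor that, in its IIIc form, binds Fgf1 and Fgf2 among others. Probe set 1436551_at read 0.38 in control 1 and 0.25 in control 2, and -0.26 in Wnt3A 1 and -0.25 in Wnt3A 2. The Wnt3A arrays were almost equal to each other and both lay below the controls, with a difference of -0.57 ± 0.12 log2 units (SE of the moderated fit, n = 2 and 2 arrays; limma, adjusted p = 0.719), or 1.48-fold lower. Its 95% interval ran from -0.90 to -0.24.

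Probe set 1424050_s_at, the Fgfr1 probe set in the upper level band, read 0.18 and 0.20 in controls 1 and 2, and -0.25 and -0.18 in Wnt3A 1 and 2. The groups did not overlap, the controls agreed within 0.02, and the difference was -0.41 ± 0.12 (limma, adjusted p = 0.739; 95% interval -0.73 to -0.091), or 1.33-fold lower. The suffix "_s_at" marks probes shared by several transcripts.

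The remaining Fgfr1 probe set, 1425911_a_at, which covers alternative transcripts of the gene, behaved differently. It read 0.76 in control 1 and -0.23 in control 2, against 0.23 in Wnt3A 1 and -0.29 in Wnt3A 2. Both arrays numbered 1 were high and both numbered 2 were low, so the groups overlapped. Its difference of -0.30 ± 0.40 was 0.19 without control 1 and -0.79 without control 2, and it was -0.56 without Wnt3A 1 and -0.041 without Wnt3A 2. Taken as the mean of all 3 probe sets, Fgfr1 differed by -0.43 ± 0.17 (limma over 18193 genes, adjusted p = 0.708), with 0.44 and 0.075 in controls 1 and 2 and -0.095 and -0.24 with Wnt3A, which did not overlap.

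Fgfr2, whose IIIb form is the epithelial receptor for Fgf7 and Fgf10, showed no common direction over its 3 probe sets. Probe set 1433489_s_at, in the upper level band, read -0.13 and 0.37 in controls 1 and 2 and -0.37 and 0.13 in Wnt3A 1 and 2, a difference of -0.24 ± 0.27. Probe set 1420847_a_at read -0.14 and 0.37 in controls 1 and 2 and -0.11 and 0.11 with Wnt3A, a difference of -0.12 ± 0.22. In both, control 2 was the highest array and the groups overlapped, and without control 2 the differences were 0.008 and 0.14. Probe set 1443211_at was the only FGF probe set with both Wnt3A arrays above both controls, at 0.17 and 0.026 against -0.026 and -0.045, but the difference was 0.13 ± 0.13 (limma, adjusted p = 0.969), with 0.061 without Wnt3A 1 and 0.21 without Wnt3A 2. The 95% intervals of the 3 probe sets ran from -0.97 to 0.48, from -0.72 to 0.48 and from -0.21 to 0.47, so a difference as large as that of Fgfr1 in the lower direction lay inside the first and second.

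Fgfr3 is a receptor for Fgf9 and Fgf18, best known for limiting bone growth. Probe set 1421841_at, in the upper band, read -0.096 and 0.14 in controls 1 and 2 and -0.19 and 0.096 in Wnt3A 1 and 2. Probe set 1425796_a_at read -0.074 and 0.014 in controls 1 and 2 and -0.014 and 0.26 with Wnt3A. The groups overlapped in both, and the differences had opposite signs, -0.069 ± 0.17 and 0.15 ± 0.15. The second was 0.016 without Wnt3A 2 and 0.29 without Wnt3A 1.

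Among the ligands, Fgf1, which binds the receptors in both splice forms, was the one with a separated probe set. Probe set 1423136_at read 0.27 and 0.14 in controls 1 and 2, and -0.33 and -0.14 in Wnt3A 1 and 2. Both Wnt3A arrays were below both controls, and the difference was -0.44 ± 0.14 (limma, adjusted p = 0.761; 95% interval -0.82 to -0.068), or 1.36-fold lower. The other Fgf1 probe sets were scattered more widely. Probe set 1450869_at read -0.047 and 0.50 for controls 1 and 2 and 0.047 and -0.14 with Wnt3A, a difference of -0.27 ± 0.23 that was -0.001 without control 2. Probe set 1441042_at read -0.19 and 0.36 for controls 1 and 2 and -0.36 and 0.19 with Wnt3A, a difference of -0.17 ± 0.29 that was 0.101 without control 2 and 0.098 without Wnt3A 1. All 3 Fgf1 probe sets thus had a lower Wnt3A mean, and control 2 was the highest array on the 2 that overlapped. The mean of the 3 gave -0.30 ± 0.17 (adjusted p = 0.829), and its arrays did not overlap, at 0.013 and 0.33 for controls 1 and 2 and -0.21 and -0.033 with Wnt3A.

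**Figure D2:**
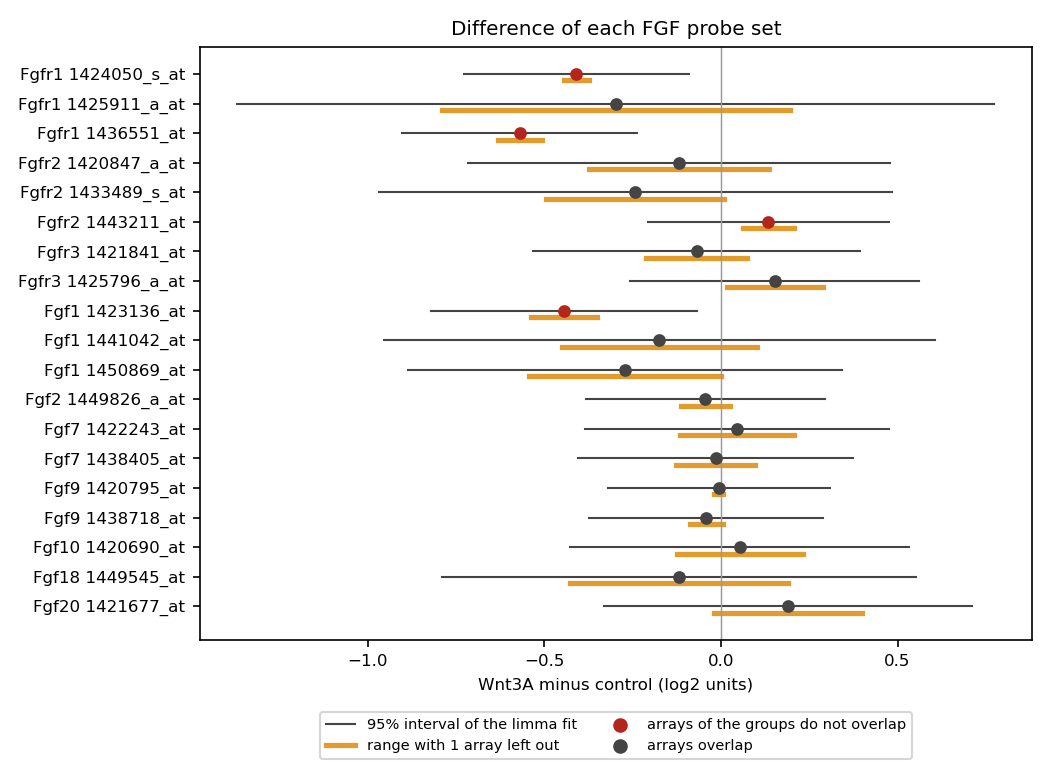
Wnt3A minus control for each of the 19 FGF probe sets (x axis, log2 units): points are the differences of the group means (red where the arrays of the groups do not overlap), black lines the 95% intervals of the limma fit and orange bars the range with 1 array left out in turn. The interval lies below 0 for Fgfr1 1436551_at (-0.90 to -0.24), Fgfr1 1424050_s_at (-0.73 to -0.091) and Fgf1 1423136_at (-0.82 to -0.068), before any adjustment over probe sets, and spans 0 in the other 16 rows.

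Fgf7 and Fgf10 are paracrine ligands of the epithelial Fgfr2 form and in tissue come mostly from stromal cells. Fgf7 read 0.0055 and -0.0055 in controls 1 and 2 and 0.21 and -0.12 in Wnt3A 1 and 2 on probe set 1422243_at, a difference of 0.045 ± 0.16. On 1438405_at it read 0.13 and -0.097 for controls 1 and 2 and 0.059 and -0.059 with Wnt3A, a difference of -0.016 ± 0.14. Fgf10 read 0.13 and -0.23 for controls 1 and 2 and 0.086 and -0.086 with Wnt3A, a difference of 0.053 ± 0.18. In all 3 probe sets the Wnt3A arrays lay within or around the controls, and the arrays numbered 1 were above those numbered 2. The 95% intervals reached from -0.43 to 0.53 for Fgf10 and from -0.41 to 0.48 over both Fgf7 probe sets, and all 3 probe sets were in the middle level band.

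Fgf2, the broadly acting basic FGF bound to matrix heparan sulfate, had its single probe set in the lowest level band. It read -0.024 and 0.11 in controls 1 and 2 and -0.020 and 0.020 in Wnt3A 1 and 2, a difference of -0.045 ± 0.13. Control 1 and both Wnt3A arrays lay within 0.05 of each other, and control 2 stood highest. At this level the probe set may carry little signal from the transcript, so a difference in Fgf2 was not detectable here and is not shown to be absent.

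Fgf9, Fgf18 and Fgf20 prefer the IIIc forms and Fgfr3, and Fgf20 is known as a ligand of hair and mammary placodes. Fgf9 was the flattest member: probe set 1420795_at read -0.0091, 0.014, 0.0091 and -0.018 in control 1, control 2, Wnt3A 1 and Wnt3A 2, a difference of -0.0066 ± 0.12, and 1438718_at, in the lowest band, differed by -0.042 ± 0.12. Fgf18 read 0.43 and -0.19 for controls 1 and 2 and 0.090 and -0.090 with Wnt3A, a difference of -0.12 ± 0.25. Control 1 was by far the highest array for Fgf18, and without it the difference was 0.19. Fgf20 read 0.054 and -0.12 for controls 1 and 2 and 0.36 and -0.054 with Wnt3A, a difference of 0.19 ± 0.19. Wnt3A 1 alone was above both controls for Fgf20, and without that array the difference was -0.019.

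The TCF/LEF factors that carry canonical Wnt signals to DNA bind a short core, so the promoters of the members were searched on both strands for the letters CTTTG followed by 2 bases that are each A or T, 4 words in all that cannot overlap one another on the same strand. Windows of 300 bases, from 250 before to 50 after a gene start, were present in a RefSeq table (build GRCm38.p6) for 7 of the 10 members, with 8 windows in all, 2 of them for Fgfr3. Fgfr1, Fgf1 and Fgf20 had no entry. One of the 8 windows, or 12.5%, held a match, against 16.9% of 32851 windows of all genes. That window belongs to Fgf7 and lies at chr2:126034408-126034707 on the plus strand. It is shown because it is the single member window with the letters, which are in capitals near its 5′ end.

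Fgf7: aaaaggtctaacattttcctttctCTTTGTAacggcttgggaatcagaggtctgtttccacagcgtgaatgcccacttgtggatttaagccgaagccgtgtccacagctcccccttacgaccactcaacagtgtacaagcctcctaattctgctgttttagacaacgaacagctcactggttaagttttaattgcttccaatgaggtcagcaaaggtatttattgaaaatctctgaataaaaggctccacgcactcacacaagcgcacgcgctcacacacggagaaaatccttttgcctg

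The match starts 226 bases before the annotated start. Fgf7 itself overlapped between the groups on both probe sets, as given above. A match describes letters only, and no binding data were used.

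The wider FGF pathway was followed through 6 lists of genes by role. None of the 154 probe sets in them passed the adjusted threshold. The 30 probe sets of 15 other Fgf genes had a median difference of 0.041, with 0 at an unadjusted p under 0.05. Of these, 6 were separated higher and 4 lower, or 33.3% beside 33.7% of all probe sets. This list, named other FGF ligands, includes Fgf11, Fgf12, Fgf13 and Fgf14, which are not secreted ligands of the receptors. The 11 probe sets of Fgfr4, Fgfrl1 and the klotho co-receptors overlapped between groups without exception and had a median of 0.021. The 4 genes that set or regulate receptor splice forms include Esrp1 and Esrp2, which promote the epithelial form. Their 10 probe sets had a median of 0.072, with 0 at an unadjusted p under 0.05. Of the 10, 2 were separated higher and 0 lower, where the shares over all probe sets were 17.4% and 16.3%. Both directions together gave 2 of 10, a smaller share than the 33.7% of all probe sets. Single differences in these 3 lists lay between -0.383 and 0.489.

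**Figure D3:**
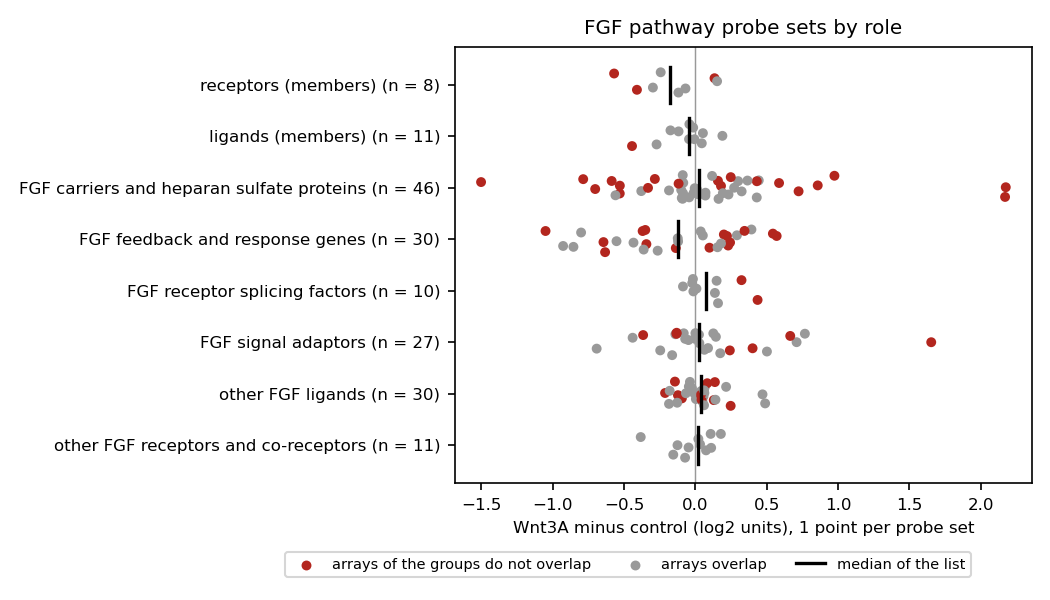
Wnt3A minus control of every probe set of the FGF receptors, ligands and 6 pathway lists (x axis, log2 units; 1 point per probe set, vertical position within a row is arbitrary). Black bars are list medians and red points have arrays that do not overlap between groups; medians lie between -0.181 (the 8 receptor probe sets) and 0.072 (splicing factors), and the widest spread is among the heparan sulfate genes, from -1.50 to 2.18.

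Heparan sulfate proteins and FGF carriers differed in both directions. Their 46 probe sets came from 18 of 19 listed genes. At an unadjusted p under 0.05, 4 were higher and 5 lower, or 19.6% beside 6.22% of all probe sets. Gpc6 alone gave 4 of the lower ones and Sdc1 gave 2 of the higher ones. In all, 10 were separated higher and 9 lower, or 41.3% beside 33.7%, and the list median was 0.023. Gpc6, a membrane-anchored glypican, was lower in both Wnt3A arrays on 4 of 5 probe sets, by 0.70 ± 0.12 (1419688_at), 0.53 ± 0.17, 0.79 ± 0.15 and 1.50 ± 0.35 log2 units. Its remaining probe set differed by 0.32 ± 0.45 with overlapping groups. Sdc1, the main syndecan of epithelial cells, was higher in both Wnt3A arrays on 4 of 4 probe sets. The Sdc1 differences were 0.86 ± 0.20, 0.59 ± 0.19, 0.43 ± 0.17 and 0.25 ± 0.18, and the second was 0.38 without Wnt3A 1. Probe set 1415944_at read -0.64 and -0.26 for controls 1 and 2 and 0.55 and 0.26 with Wnt3A.

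Sulf1, a sulfatase that trims heparan sulfate and thereby lowers FGF receptor signalling, had the widest difference among the pathway genes. Probe set 1438200_at read -2.56 and -0.36 in controls 1 and 2, and 1.06 and 0.36 in Wnt3A 1 and 2, a difference of 2.17 ± 0.80 (limma, adjusted p = 0.803). Control 1 was far below the rest, and the difference was 1.07 without it and 3.27 without control 2. A second probe set differed by 2.18 ± 0.88 with the same order of arrays, and the last, in the lowest level band, by 0.12 ± 0.14. Hs2st1, which adds a sulfate that FGFs need for binding, differed by 0.72 ± 0.20 on 1440905_at, while its 3 other probe sets overlapped between groups at -0.095, 0.010 and 0.070.

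Genes that dampen or report FGF signalling also went both ways. These genes answer to ERK signalling in general, and EGF was present in both groups. Of 30 probe sets (11 of 12 listed genes), 1 was higher and 4 lower at an unadjusted p under 0.05, or 16.7% beside 6.22% of all probe sets. In all, 8 were separated higher and 7 lower, or 50.0% beside 33.7%, and the median was -0.122. Dusp6, a phosphatase that inactivates ERK, read 0.31 and 1.05 in controls 1 and 2 and -0.44 and -0.31 with Wnt3A. Both Wnt3A arrays were lower, by 1.05 ± 0.28 on average (limma, adjusted p = 0.728), and by 0.68 without control 2. Spred1, an inhibitor of the Ras to ERK step, had 5 of 8 probe sets separated lower and 2 separated higher. Its differences ranged from -0.64 to 0.20, and the 3 with an unadjusted p under 0.05 were lower, among them 1423160_at at -0.37 ± 0.12. Its relative Spred3 differed by 0.54 ± 0.18 in the other direction, and by 0.34 without control 1.

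**Figure D4:**
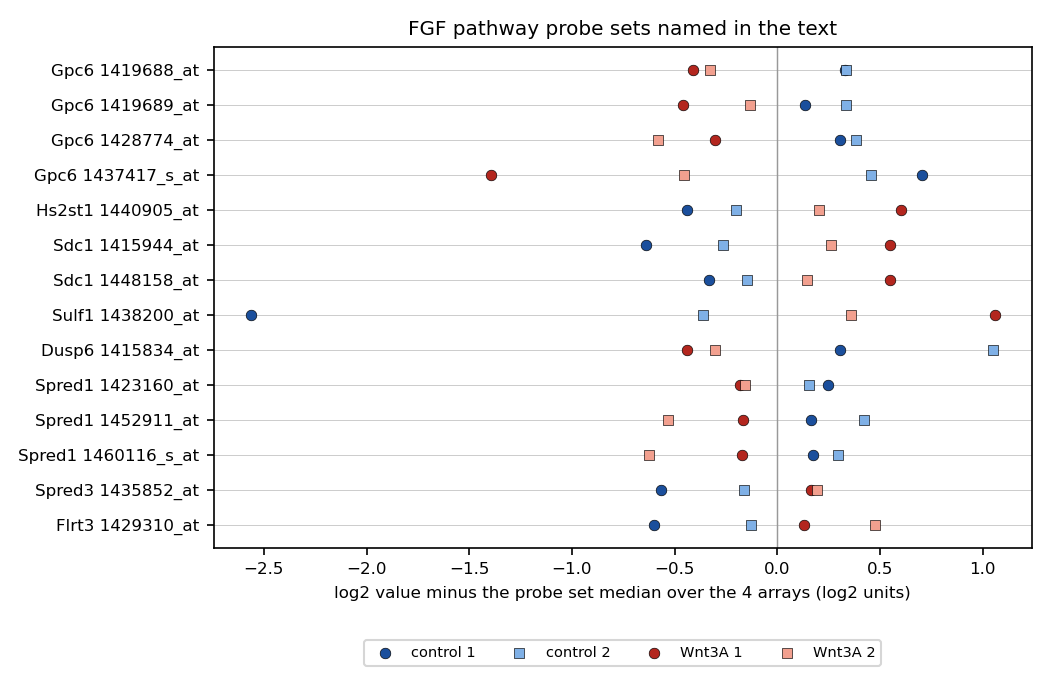
Deposited log2 values in the 4 arrays, relative to the probe set's own 4-array median (x axis, log2 units), for the 14 pathway probe sets whose arrays do not overlap between groups and whose unadjusted p is under 0.05, from the genes named in the text. Wnt3A arrays (red) lie left of controls (blue) for Gpc6, Dusp6 and Spred1 and right of them for Hs2st1, Sdc1, Sulf1, Spred3 and Flrt3; Sulf1 in control 1, at -2.56, is the farthest point.

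Signal adaptors downstream of the receptors, listed together with the membrane proteins Flrt2 and Flrt3, had 27 probe sets (10 of 11 listed genes). Their median was 0.025, and 4 were separated higher and 3 lower, or 25.9% beside 33.7%. At an unadjusted p under 0.05 there was 1 probe set, or 3.70% beside 6.22%. It belonged to Flrt3, a membrane protein that binds FGF receptors, and read -0.60 and -0.13 for controls 1 and 2 and 0.13 and 0.47 with Wnt3A. Its difference was 0.66 ± 0.23 (adjusted p = 0.786) and 0.43 without control 1, and the other Flrt3 probe set differed by 0.50 with overlapping groups.

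Neighbours by values alone were sought for the separated FGF probe sets with an unadjusted p under 0.05, so Fgfr2 1443211_at was left out. The probe sets of other genes closest to them over the 4 arrays were named by Euclidean distance in log2 units. For Fgfr1 1436551_at these were Ikzf5 (0.022), Tmem205 (0.044) and Cpsf6 (0.046), and for Fgfr1 1424050_s_at they were Cnih2 (0.011), Smarcd2 (0.024) and Ripor2 (0.025). For Fgf1 1423136_at they were Neurl1b (0.026), Col9a3 (0.031) and Khnyn (0.043). With 4 points a close match is easily found among the 34945 probe sets with a single symbol, and the distances are a description.

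Marker genes of basal cells and of other mammary cell types were read beside these values. The gate is set to leave out endothelial and blood cells (CD31, CD45 and TER119), stroma without CD24 and luminal cells with low CD29. Of 28 basal epithelial marker probe sets 15 lay in the upper level band, as did 9 of 18 luminal, 2 of 18 fibroblast, 2 of 10 immune, 1 of 8 adipocyte, 6 of 14 squamous keratinocyte and 0 of 7 endothelial ones. The share over all probe sets was 33.4%, and a band can be too high by coincidence. The fibroblast list, which matters because stroma expresses Fgfr1, Fgf7 and Fgf10, had a median difference of 0.065, with list medians of -0.014 and -0.022 in controls 1 and 2 and 0.031 and 0.006 in Wnt3A 1 and 2. Its separated lower probe sets were 2 of the 3 of Pdgfra, a fibroblast receptor, at -1.76 ± 0.48 and -0.54 ± 0.16, while 4 probe sets were separated higher. Basal markers were separated higher on 11 of 28 probe sets and lower on 2 (median 0.199), where the shares over all probe sets were 17.4% and 16.3%. Those separated higher came from Itgb1, Krt14, Mylk, Snai2 and Trp63, and 5 of the 11 were of Itgb1. Mylk was separated higher on 1425504_at, at 0.19 ± 0.15. Its probe sets 1425505_at and 1425506_at differed by -0.78 ± 0.43 and -0.83 ± 0.58 with overlapping groups. Those separated lower were Acta2 1456658_at, at -0.18 ± 0.12, and Oxtr 1440888_at, at -2.60 ± 0.12 (limma, adjusted p = 0.511). Oxtr encodes the oxytocin receptor of myoepithelial cells. The other Oxtr probe set, 1426000_at, differed by -0.17 ± 0.22 with overlapping groups. Luminal markers were separated lower on 6 of 18 probe sets, or 33.3%, and higher on 1 (median -0.182). Squamous keratinocyte markers were separated higher on 9 of 14, or 64.3%, and lower on 0 (median 1.24). Squamous list medians were -0.50 and -0.35 for controls 1 and 2 and 0.42 and 1.14 in Wnt3A 1 and 2. The part of these shifts in the Fgfr1 and Fgf1 values was not tested, and in RNA from whole colonies fewer cells of a type and less RNA per cell cannot be told apart.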

How the data were processed

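Single-colour Affymetrix whole-genome mouse arrays were hybridised with RNA from 2 control and 2 Wnt3A samples. The deposited values are on a log2 scale and came from RMA (no version), as the submitters' processing notes record. How each row's median over the 4 arrays was set to 0 is not given in those notes or other sources used. Probe sets were named through the platform annotation (34945 with a single symbol, 932 with several, 9160 with none), and all 10 members' Entrez identifiers matched a RefSeq gene table. The 64 array controls were left out.

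All 45037 probe sets were fitted with the moderated linear model of limma 3.58.1 (R 4.3.3; two-sided, 2 residual and 2.3 prior degrees of freedom, no covariate), with Benjamini-Hochberg adjustment over all of them and a threshold of 0.05. Standard errors and 95% intervals are those of this moderated fit. The median standard error was 0.158 log2 units. Gene values were means of a gene's probe sets, fitted over 18193 genes. The fit and the level bands were tested on simulated data. The number of arrays limits the precision.

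Members, lists and the rule for named genes were chosen with earlier results of these data known. The rule named all members and, per pathway list, at most 4 genes with a probe set with separated groups and an unadjusted p under 0.05, those with the largest absolute difference. Ndst1, Frs2 and Etv1 had no probe set with a single symbol. Alternatives were quantile normalization, centring of arrays, the replicate number as a block, robust variance moderation, no probe sets in the lowest band, single-symbol probe sets alone, and each array left out. Figures used matplotlib 3.10.9 under Python 3.11.15.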

Additional observations from a re-analysis of the deposited data

How the results depend on the processing

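No alternative took an FGF probe set past the adjusted threshold, and an unadjusted p under 0.05 counted 3 in place of 0. The smallest adjusted p was 0.395, with the replicate block. That fit left 0 of 19 called and the same 3 probe sets at an unadjusted p under 0.05. Over all probe sets it gave 4882 at an unadjusted p under 0.05 against 2801 without it. Deviations of same-numbered arrays from their group means correlated at 0.526 over 45037 probe sets, but the labels do not say that a number marks a shared source. Of 19 differences, 6 kept their sign in all alternatives, among them Fgfr1 1436551_at (-0.632 to -0.508 with an array left out), Fgfr1 1424050_s_at (-0.444 to -0.375) and Fgf1 1423136_at (-0.538 to -0.351). In these 3 the groups do not overlap, so leaving out an array cannot change the sign. The block, the robust fit and leaving out probe sets do not alter a difference, so a kept sign is no added support. The 13 differences that did not keep their sign changed it only with an array left out.

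With 1 array left out, the differences ranged from -0.791 to 0.195 for Fgfr1 1425911_a_at, from -0.375 to 0.137 and from -0.495 to 0.009 for Fgfr2 1420847_a_at and 1433489_s_at, and from -0.213 to 0.074 for Fgfr3 1421841_at. For the ligands they ranged from -0.45 to 0.101 (Fgf1 1441042_at), -0.113 to 0.024 (Fgf2), -0.116 to 0.206 and -0.128 to 0.097 (Fgf7 1422243_at and 1438405_at), -0.020 to 0.007 and -0.089 to 0.005 (Fgf9 1420795_at and 1438718_at), -0.125 to 0.231 (Fgf10), -0.428 to 0.191 (Fgf18) and -0.019 to 0.398 (Fgf20). The count of separated FGF probe sets was 4, and 9 to 15 with an array left out, where fewer arrays have to be ordered. Over all 45037 probe sets the counts rose too, from 7818 higher and 7357 lower with all arrays. They were 16881 and 12941 without control 1, where the FGF count was 15, and 13876 and 16150 without Wnt3A 1, where it was 9. Counts at an unadjusted p are not given for these fits, which leave 1 array in a group. The median difference ranged from -0.065 to 0.005 with an array left out, and it was -0.118 without the lowest level band, which left 17 probe sets. From the upper-band probe set alone, Fgfr3 differed by -0.069 in place of 0.041 as the mean of both.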
